A study of Homo sapiens with 16 samples.

Results

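FOS, FOSB, FOSL1, FOSL2, JUN, JUNB, JUND and ATF3 encode subunits of AP-1, a dimeric transcription factor. These 8 genes were taken by symbol from a table of read counts for 30813 genes, and all 8 were present and passed the filter on low counts in every fit. They were followed over 16 RNA sequencing libraries of 2 human melanoma cell lines, A375 and 451Lu, each made resistant by culture on MAPK pathway inhibitors. The study asked how gene expression changed over time after the drug was withdrawn. The A375 derivative, labelled DR A375, was kept on dabrafenib (0.5 µM), which inhibits the kinase BRAF, plus trametinib (0.05 µM), which inhibits MEK, and was then given DMSO for 6, 24 or 48 h. The 451Lu derivative, labelled 451Lu BR, was kept on dabrafenib (1 µM) and was then given DMSO for 24, 72 or 120 h. Each of the 8 groups had 2 libraries. The source name given for 451Lu speaks of resistance to both drugs, while the treatment notes name dabrafenib alone, and the dose used here follows the treatment notes. All groups were grown in medium with serum, and the labels do not say whether a derivative is 1 clone or a pool.

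AP-1 factors bind DNA as pairs held together by a leucine zipper. A FOS protein must pair with a JUN protein or another bZIP protein, whereas JUN proteins can also pair with each other. In cells with active BRAF, the kinases ERK and RSK raise the transcription of several FOS and JUN genes and stabilise proteins such as FOS and FOSL1 (FRA1), so the family is a textbook output of the MAPK pathway. In melanoma, FOSL1 and JUN are known from dedifferentiated and invasive cell states. ATF3 belongs to the same wider bZIP group, binds both AP-1 and CRE sites and is best known as a stress-induced factor.

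RefSeq promoter windows, each from 250 bases before to 50 bases after a transcript start on GRCh38.p14, were found for 7 of the 8 members, with 2 windows for ATF3. FOSL1 had no entry. The windows of FOSB and JUNB are shown because the levels of these genes followed each other most closely over the 8 groups, and those of FOS and JUN because each gives its family its name. Capitals mark a CRE core (TGACG) or a CRE-like octamer (TGACNTCA), on either strand. The windows lie at chr19:45467746-45468045 (plus strand, FOSB), chr19:12791236-12791535 (plus strand, JUNB), chr14:75278578-75278877 (plus strand, FOS) and chr1:58783998-58784297 (minus strand, JUN).
FOSB: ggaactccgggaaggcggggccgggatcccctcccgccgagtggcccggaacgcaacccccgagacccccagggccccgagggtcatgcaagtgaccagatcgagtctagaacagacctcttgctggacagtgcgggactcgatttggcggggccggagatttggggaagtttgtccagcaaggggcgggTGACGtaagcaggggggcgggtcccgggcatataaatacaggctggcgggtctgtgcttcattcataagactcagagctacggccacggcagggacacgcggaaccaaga
JUNB: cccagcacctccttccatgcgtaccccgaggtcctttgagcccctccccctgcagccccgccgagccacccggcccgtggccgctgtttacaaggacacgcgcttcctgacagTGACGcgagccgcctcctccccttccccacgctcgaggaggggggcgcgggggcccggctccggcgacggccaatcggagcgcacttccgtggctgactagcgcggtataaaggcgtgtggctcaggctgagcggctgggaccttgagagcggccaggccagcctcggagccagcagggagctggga
FOS: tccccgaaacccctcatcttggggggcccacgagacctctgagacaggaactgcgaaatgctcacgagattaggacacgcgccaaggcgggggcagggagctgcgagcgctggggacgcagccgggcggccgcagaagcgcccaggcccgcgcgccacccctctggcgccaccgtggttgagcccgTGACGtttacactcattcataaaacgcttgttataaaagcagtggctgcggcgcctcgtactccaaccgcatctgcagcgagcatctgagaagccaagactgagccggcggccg
JUN: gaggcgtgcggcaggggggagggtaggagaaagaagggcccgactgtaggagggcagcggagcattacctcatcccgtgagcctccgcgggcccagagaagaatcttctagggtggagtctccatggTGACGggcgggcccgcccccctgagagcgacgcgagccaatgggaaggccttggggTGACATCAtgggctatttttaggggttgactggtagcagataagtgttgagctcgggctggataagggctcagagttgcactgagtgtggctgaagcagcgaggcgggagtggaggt

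The CRE core was found in 6 of the 7 matched genes, namely FOS, FOSB, FOSL2, JUN, JUNB and JUND, and it occurs in 24.6% of all 35114 windows of this length. It lies 64 bases before the start of FOS, 60 before that of FOSB, 123 before that of JUN and 137 before that of JUNB. The octamer, which contains the core when N is G, was found in JUN and ATF3 as TGACATCA and in JUND as TGACGTCA, and 7.72% of all windows hold it. Only the FOSL2 window held an AP-1 heptamer (TGANTCA, 7.71% of all windows), and no member's window held a CArG box, the site of SRF (1.29% of all windows). Sequence outside the windows was not searched, and FOSL1 had no window. Whether a CArG box lies farther upstream of a member, FOS included, was therefore not tested. TATAAA stood 30 bases before the start of FOSB, 31 before that of JUNB and 33 before that of FOS, against 11.5% of all windows with a match anywhere. These matches describe letters in a window and are not measured binding.

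Library totals ran from 9714190 to 16691725 counts, and the 2 libraries of a group differed by more than sampling noise in every group (chi-square over degrees of freedom 1.29 to 6.03). Genes of the mitochondrial genome took 4.81% to 6.11% of counts on drug and 2.60% to 5.08% off drug. Levels are CPM, a gene's count relative to the TMM-scaled library total, and changes are log2 fold changes with their standard error (SE) from edgeR's quasi-likelihood test. Calls are made at a Benjamini-Hochberg adjusted p of 0.05 over all genes tested in a comparison. TMM takes the bulk of genes as unchanged, so levels are relative to other genes and not amounts per cell. In bulk RNA, fewer cells of a type and less RNA per cell cannot be told apart. No on-drug library accompanies each time, so time in culture and withdrawal cannot be told apart, and the comparisons against on drug within a line share the same 2 on-drug libraries. Whether the libraries of a group are separate cultures is not said in the labels, so the p-values cover the spread between these samples alone, which may be technical.

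**Figure D1:**
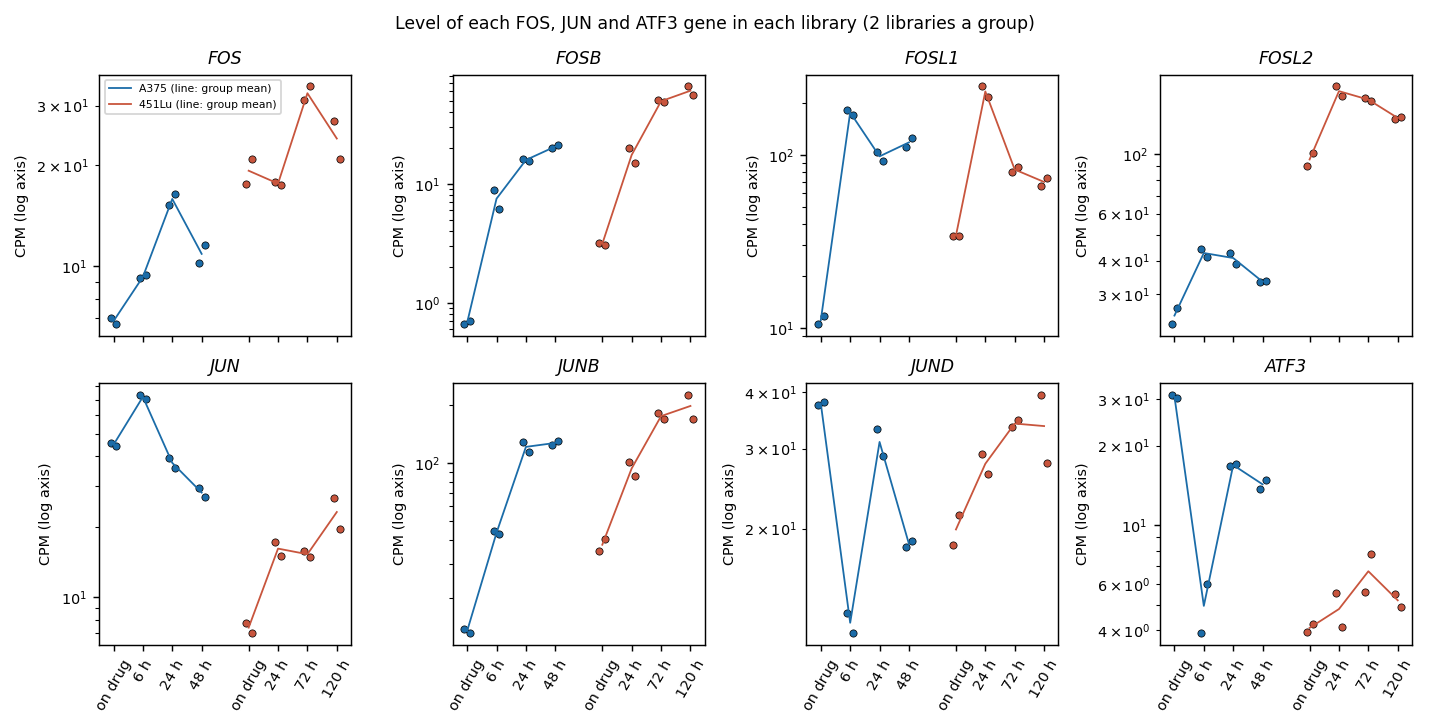
Level of each of the 8 genes in every library, in CPM on a log axis, with A375 in blue and 451Lu in red and a line through the group means. FOSB runs from 0.662 CPM in an A375 library on drug to 65.9 in a 451Lu library at 120 h, the widest range of the 8, while JUND stays between 11.8 and 39.3.

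A large part of the transcriptome moved with withdrawal, and the members are read against that background. In A375 all 8 members were called at 6 h (6 higher, 2 lower), where 73.3% of all genes tested were called, 35.1% higher and 38.1% lower. At 24 h and at 48 h all 8 were again called, 5 higher and 3 lower each time, against 72.6% of genes at either time. Of all genes tested, 36.2% were called higher and 36.3% lower at 24 h, and 36.6% higher and 36.0% lower at 48 h. In 451Lu 6 members were called at 24 h against 54.1% of genes, all 8 at 72 h against 67.7%, and 7 at 120 h against 73.8%. Every one of these 451Lu member calls was a rise, where 29.2%, 34.2% and 37.3% of all genes tested were called higher at the 3 times. The share of members called higher was above that of all genes tested at each of these 6 times, and the share called lower in A375 was below it at 6 h and near it at 24 and 48 h. At least 2-fold rises were called for FOSB, FOSL1 and JUNB in A375 at 6 h (10.4% of all genes tested) and at 48 h (10.5%), and for these and FOS at 24 h (9.79%). In 451Lu they were called for FOSB, FOSL1, JUN and JUNB at 24 h (8.69%), 72 h (15.4%) and 120 h (18.5%).

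The median log2 change of the 8 members was 0.69, 0.93 and 0.51 at 6, 24 and 48 h in A375, where the median of all genes tested lay at -0.06, -0.02 and -0.0009. In 451Lu it was 1.02, 0.91 and 0.88 at 24, 72 and 120 h, beside 0.03, -0.002 and 0.001 for all genes tested.

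FOSB had the largest rise of the 8 at 24 and 48 h in A375 and at 72 and 120 h in 451Lu. It encodes a FOS protein with a strong activation domain that is induced for a short time by growth signals. In A375 its level was 0.662 and 0.704 CPM on drug (12 and 11 counts), 8.86 and 6.17 at 6 h, 16.2 and 15.5 at 24 h, and 20.1 and 21.1 at 48 h. In 451Lu it was 3.20 and 3.07 CPM on drug, 20.03 and 15 at 24 h, 50.3 and 48.7 at 72 h, and 65.9 and 55.4 at 120 h. Each later group lay above the one before it in both lines, with no overlap between neighbouring times. The log2 change from on drug in A375 was 3.41 ± 0.26 (SE) at 6 h and 4.87 ± 0.20 at 48 h, a 29.2-fold rise (edgeR adjusted p = 2.58e-21). In 451Lu it was 2.52 ± 0.17 at 24 h and 4.26 ± 0.15 at 120 h, a 19.1-fold rise (edgeR adjusted p = 1.99e-13). The last step was small in both lines. The change was 0.37 ± 0.11 from 24 to 48 h in A375 (edgeR adjusted p = 0.00844, but 0.137 with DESeq2) and 0.28 ± 0.11 from 72 to 120 h in 451Lu, which was not called (adjusted p = 0.0551). That last change was called with a replicate block (0.27, adjusted p = 0.0122), in the joint fit of all 16 libraries (0.30, adjusted p = 0.0229) and with no filter on low counts (0.28, adjusted p = 0.021). It was also called without the second 120 h library (0.38, adjusted p = 0.0128), but not without the first (0.14, adjusted p = 0.439).

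FOSB (ENSG00000125740, chromosome 19, 45467995 to 45475179, plus strand) lies over part of ERCC1, a DNA repair gene on the opposite strand. The annotation (GENCODE v29) gives the 2 genes 0 shared exonic bases. ERCC1 itself rose, by 2.21 ± 0.05 at 6 h in A375 (edgeR adjusted p = 8.43e-28) and by 1.83 ± 0.06 at 120 h in 451Lu (adjusted p = 1.53e-13), and held 26361 counts in all libraries against 3961 for FOSB. Whether the counting used strand is not given in the sources used here, so unspliced reads of the pair cannot be told apart. In A375 ERCC1 was highest at 6 h and fell by 0.55 from 6 to 24 h, while FOSB rose by 1.08 ± 0.14 over the same interval. In 451Lu ERCC1 rose along with FOSB, with mean levels of 51.5 CPM on drug, 113 at 24 h, 158 at 72 h and 185 at 120 h. The part of ERCC1 reads in the FOSB counts was not tested.

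FOSL1 (ENSG00000175592, chromosome 11, 65892049 to 65900573, minus strand) had the largest rise of the 8 at the first time sampled in both lines. It encodes FRA1, a FOS protein without the C-terminal activation domain of FOS. In A375 its level was 10.5 and 11.7 CPM on drug, 182 and 169.5 at 6 h, 104 and 91.7 at 24 h, and 111 and 125 at 48 h. The 6 h libraries were the highest of the line, and no off-drug library came near the on-drug pair. The change at 6 h was 3.96 ± 0.08, a 15.5-fold rise (edgeR adjusted p = 2.15e-30). FOSL1 then fell by 0.83 from 6 to 24 h (SE 0.06, edgeR adjusted p = 1.63e-14). From 24 to 48 h it rose by 0.26 ± 0.06 (adjusted p = 0.00121), a call that was lost without the second 24 h library, where the change was 0.18 (adjusted p = 0.0635).

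In 451Lu the FOSL1 level was 34.1 CPM in both libraries on drug, 248 and 216 at 24 h, 79.5 and 84.9 at 72 h, and 65.6 and 73.7 at 120 h. The 24 h libraries stood well above all others of the line, and those at 72 and 120 h still above the on-drug pair. The rise at 24 h was 2.80 ± 0.08 (6.96-fold, edgeR adjusted p = 8.29e-14), followed by a fall of 1.53 to 72 h (SE 0.08, adjusted p = 1.94e-10). At 120 h FOSL1 was still 2.02-fold above on drug (adjusted p = 1.9e-08). The further fall from 72 to 120 h, 0.26 (adjusted p = 0.0252), was not called without the second 72 h library (adjusted p = 0.149) or the first 120 h library (adjusted p = 0.179). FOSL1 was thus highest at the first time sampled in each line, 6 h in A375 and 24 h in 451Lu. Earlier times were not sampled, so when it peaked is not known.

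FOS (ENSG00000170345, chromosome 14, 75278774 to 75282230, plus strand), the founding member and a classic gene of the serum and growth factor response, rose by at most 2.24-fold. In A375 its level was 7.01 and 6.72 CPM on drug, 9.20 and 9.39 at 6 h, 15.2 and 16.4 at 24 h, and 10.2 and 11.5 at 48 h. The groups did not overlap, and the 24 h pair was the highest. The change was 0.40 ± 0.14 at 6 h (edgeR adjusted p = 0.0114), 1.16 ± 0.12 at 24 h (adjusted p = 1.1e-10) and 0.63 ± 0.13 at 48 h (adjusted p = 9.36e-05). The 6 h call was lost without the second 6 h library (change 0.39, adjusted p = 0.0507) or the second on-drug library (change 0.37, adjusted p = 0.0508).

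In 451Lu the FOS level was 17.6 and 20.9 CPM on drug, 17.8 and 17.4 at 24 h, 31.1 and 34.2 at 72 h, and 27.1 and 20.8 at 120 h. The 24 h and 120 h libraries overlapped the on-drug range, and the 72 h pair lay above all others. At 24 h the change was -0.10 ± 0.13 (95% interval -0.37 to 0.16, edgeR adjusted p = 0.519). It was 0.76 ± 0.12 at 72 h (adjusted p = 3.11e-05) and 0.30 ± 0.12 at 120 h (adjusted p = 0.0349). The 120 h call did not hold with DESeq2 (adjusted p = 0.0931), with no filter on low counts (adjusted p = 0.0612), without the first 120 h library (change 0.06, adjusted p = 0.736) or without the first on-drug library (change 0.18, adjusted p = 0.282).

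FOSL2 (ENSG00000075426, chromosome 2, 28392448 to 28417312, plus strand) encodes FRA2, the other FOS protein without the C-terminal activation domain. It rose in both lines by less than 2-fold. Its A375 level was 23.1 and 26.7 CPM on drug, 44.2 and 41.2 at 6 h, 42.8 and 39.0 at 24 h, and 33.3 and 33.4 at 48 h. Its 451Lu level was 90.3 and 101 CPM on drug, 179 and 165 at 24 h, 162 and 158 at 72 h, and 135.5 and 138 at 120 h. All off-drug libraries lay above the on-drug pair of their line, and every 451Lu library lay above every A375 library. The first change was 0.75 ± 0.08 at 6 h in A375 (edgeR adjusted p = 3.92e-10) and 0.88 ± 0.07 at 24 h in 451Lu (adjusted p = 1.11e-08), and it narrowed to 0.39 ± 0.08 at 48 h and 0.50 ± 0.07 at 120 h.

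The 4 FOS genes together held 43.5 ± 3.2 CPM (SD, n = 2) in A375 on drug, 235 ± 12.6 at 6 h, 171 ± 11.3 at 24 h and 183 ± 11.4 at 48 h. In 451Lu their sum was 152 ± 9.7 CPM on drug, 440 ± 36.6 at 24 h, 324.5 ± 1.9 at 72 h and 291 ± 4.5 at 120 h. The sum was therefore highest at the first time after withdrawal in each line. The group means of FOSL1 and FOSL2 were both at their highest of the line there, though the A375 libraries of FOSL2 at 6 and 24 h overlapped.

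By share of raw counts the leading FOS member changed hands. FOSL2 held 57.2% ± 1.6 (SD, n = 2) of the family's counts in A375 on drug, and FOSL1 held 74.7% ± 0.3 at 6 h, 57.4% ± 1.4 at 24 h and 64.5% ± 1.2 at 48 h. In 451Lu FOSL2 led on drug with 62.8% ± 0.9, FOSL1 at 24 h with 52.8% ± 0.8, and FOSL2 again at 72 h (49.4% ± 1.2) and 120 h (47.0% ± 1.3). FOSB grew from 1.57% ± 0.05 of the family in A375 on drug to 11.3% ± 0.3 at 48 h, and from 2.07% ± 0.19 in 451Lu on drug to 20.8% ± 2.2 at 120 h. The leading member was the same in both libraries of every group.

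A share of raw counts favours long genes, and here the leading member differed per length. FOSL2 has 7157 exonic bases, FOSL1 1887, FOS 3238 and FOSB 5553. Per exonic kilobase FOSL1 held the largest share in all 8 groups, from 50.6% ± 0.6 in A375 on drug to 90.1% ± 0.1 at 6 h and 84.2% ± 0.6 at 48 h. In 451Lu the per-kilobase share of FOSL1 was 47.7% ± 2.2 on drug, 79.0% ± 0.5 at 24 h, 51.3% ± 1.1 at 72 h and 49.7% ± 3.7 at 120 h. FOSL2 came next on drug with 30.0% ± 1.2 in A375 and 35.2% ± 1.1 in 451Lu. On either scale the share of FOSL1 was higher than on drug at the first time in both lines and at all times in A375. At 72 and 120 h in 451Lu it was close to that on drug, with per-kilobase shares at 120 h of 47.0% and 52.3% in the 2 libraries against 49.2% and 46.1% on drug.

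**Figure D2:**
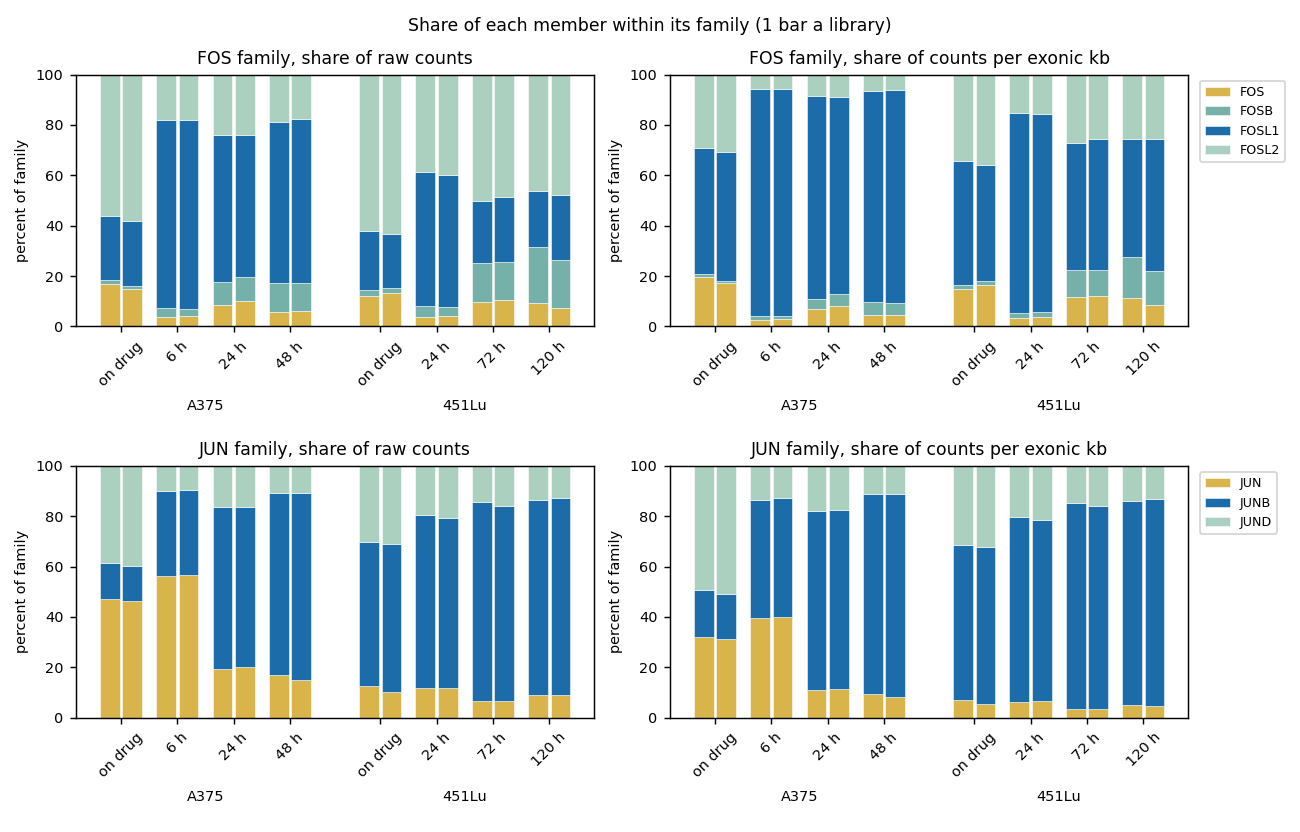
Share of each member in its family, 1 bar a library and 2 bars a group, from raw counts (left) and from counts per exonic kilobase (right), as percent of the family. FOSL1 (dark blue, upper panels) passes FOSL2 only off drug in raw counts (57.2% for FOSL2 in A375 on drug) but is the largest FOS member in all 8 groups per kilobase.

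Ratios taken within a library do not depend on scaling between libraries. The log2 ratio of FOSL1 to FOSL2 counts in A375 was -1.14 and -1.20 on drug, 2.04 in both libraries at 6 h, 1.28 and 1.23 at 24 h, and 1.74 and 1.90 at 48 h. In 451Lu it was -1.40 and -1.56 on drug, 0.47 and 0.39 at 24 h, -1.03 and -0.90 at 72 h, and -1.05 and -0.90 at 120 h. No off-drug library overlapped the on-drug pair of its line. The mean shift from on drug was 3.21 at 6 h in A375 and 1.92 at 24 h in 451Lu, and only 0.51 at 120 h in 451Lu. With 2 libraries against 2 an exact permutation test, two-sided, cannot give a p below 0.333, and no other test of the ratios was run.

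JUN (ENSG00000177606, chromosome 1, 58780788 to 58784327, minus strand) encodes the strongest activator among the JUN proteins, a target of JNK. It went opposite ways in the 2 lines at the later times. In A375 its level was 45.7 and 44.2 CPM on drug, 73.3 and 70.7 at 6 h, 39.4 and 35.7 at 24 h, and 29.3 and 26.7 at 48 h. The 6 h pair lay above the on-drug pair and both later pairs below it. The change was 0.64 ± 0.06 at 6 h (edgeR adjusted p = 6.16e-11), -0.29 ± 0.07 at 24 h (adjusted p = 3.59e-04) and -0.72 ± 0.08 at 48 h (adjusted p = 2.67e-10). From 6 to 24 h JUN fell by 0.93 (SE 0.07, adjusted p = 2.48e-14).

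In 451Lu the JUN level was 7.76 and 7.02 CPM on drug, 17.2 and 15 at 24 h, 15.7 and 14.8 at 72 h, and 26.7 and 19.6 at 120 h. All off-drug libraries lay above the on-drug pair. The change was 1.16 ± 0.15 at 24 h (edgeR adjusted p = 7.14e-06), 1.05 ± 0.16 at 72 h and 1.64 ± 0.15 at 120 h (3.12-fold, adjusted p = 3.43e-08). The rise from 72 to 120 h, 0.59 ± 0.14 (adjusted p = 0.0047), was lost without the first 120 h library (change 0.34, adjusted p = 0.114) or the second 72 h library (change 0.53, adjusted p = 0.0556).

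JUNB, an early growth-signal target whose protein is a weaker activator than JUN, rose at every time in both lines. The A375 level was 13.7 and 13.1 CPM on drug, 44.4 and 42.7 at 6 h, 129 and 114 at 24 h, and 124 and 131 at 48 h. The 451Lu level was 34.9 and 40.5 CPM on drug, 102 and 86.1 at 24 h, 182 and 169.5 at 72 h, and 226 and 171 at 120 h. The off-drug libraries all lay above the on-drug pair of their line, and the last 2 times overlapped in both lines. The rise in A375 was 1.66 ± 0.09 at 6 h (edgeR adjusted p = 5e-18) and 3.21 ± 0.08 at 48 h (9.27-fold, adjusted p = 1.09e-28). The rise in 451Lu was 1.35 ± 0.12 at 24 h (adjusted p = 7.64e-08) and 2.38 ± 0.12 at 120 h (5.21-fold, adjusted p = 1.45e-11).

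JUNB (ENSG00000171223, chromosome 19, 12791496 to 12793315, plus strand) shares 259 of its 1820 exonic bases with HOOK2 on the opposite strand. HOOK2 held 1667 counts in all libraries against 19297 for JUNB. It fell by 0.74 at 6 h in A375 (edgeR adjusted p = 1.41e-04) and changed by -0.15 ± 0.13 at 120 h in 451Lu (adjusted p = 0.309).

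JUND (ENSG00000130522, chromosome 19, 18279760 to 18281622, minus strand) is usually expressed without stimulation and is known to restrain growth in some cells. It fell in A375 and rose in 451Lu. In A375 its level was 37.3 and 38.0 CPM on drug, 13.03 and 11.8 at 6 h, 33.2 and 28.9 at 24 h, and 18.2 and 18.8 at 48 h. The 6 h pair was the lowest, the 24 h pair came back to near the on-drug pair without reaching it, and the 48 h pair was low again. The change was -1.64 ± 0.09 at 6 h (3.11-fold lower, edgeR adjusted p = 4.45e-17), -0.30 ± 0.07 at 24 h (adjusted p = 5.09e-04) and -1.06 ± 0.09 at 48 h (adjusted p = 5.76e-13). The steps between, a rise of 1.33 ± 0.10 from 6 to 24 h (adjusted p = 6.4e-14) and a fall of 0.75 from 24 to 48 h (SE 0.09, adjusted p = 5.82e-08), were both called.

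In 451Lu the JUND level was 18.4 and 21.5 CPM on drug, 29.1 and 26.4 at 24 h, 33.5 and 34.6 at 72 h, and 39.3 and 27.9 at 120 h. All off-drug libraries lay above the on-drug pair. The change was 0.51 ± 0.13 at 24 h (edgeR adjusted p = 0.00385), 0.77 ± 0.13 at 72 h (adjusted p = 8.32e-05) and 0.74 ± 0.13 at 120 h (adjusted p = 8.33e-05). Without the first on-drug library the 24 h change was 0.40 and not called (adjusted p = 0.0632). The 2 libraries at 120 h differed, and without the first of them the 120 h change was 0.42 (adjusted p = 0.00541).

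The 3 JUN genes together held 96.0 ± 1.0 CPM (SD, n = 2) in A375 on drug, 128 ± 3.9 at 6 h, 190.3 ± 16.7 at 24 h and 174 ± 3.5 at 48 h. In 451Lu their sum was 65.0 ± 5.6 CPM on drug, 138 ± 14.7 at 24 h, 225 ± 8.9 at 72 h and 255 ± 52.4 at 120 h. By group mean the JUN sum was highest later than the FOS sum in both lines, although its libraries at 72 and 120 h in 451Lu overlapped.

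By share of raw counts JUN led its family in A375 on drug with 46.8% ± 0.6 (SD, n = 2) and at 6 h with 56.3% ± 0.3, and JUNB led at 24 h with 64.0% ± 0.2 and at 48 h with 73.3% ± 1.4. In 451Lu JUNB led throughout, with 58.0% ± 1.1 on drug, 68.1% ± 0.9 at 24 h, 78.1% ± 0.9 at 72 h and 77.9% ± 0.6 at 120 h. Length matters here too, since JUN has 3540 exonic bases, JUNB 1820 and JUND 1863. Per exonic kilobase JUND led in A375 on drug with 50.2% ± 1.0, and JUNB led in the other 7 groups. At 6 h in A375 JUNB held 47.0% ± 0.2 of the per-kilobase total, JUN 40.0% ± 0.3 and JUND 13.1% ± 0.5. On either scale JUNB held a larger and JUND a smaller mean share than on drug at every time after withdrawal in both lines.

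The log2 ratio of JUNB to JUND counts, which are of almost equal length, was -1.44 and -1.54 in A375 on drug, 1.77 and 1.85 at 6 h, 1.97 and 1.98 at 24 h, and 2.77 and 2.80 at 48 h. In 451Lu it was 0.93 and 0.92 on drug, 1.81 and 1.71 at 24 h, 2.44 and 2.29 at 72 h, and 2.53 and 2.61 at 120 h. No off-drug library overlapped the on-drug pair, and the lines lay far apart on drug but near each other off drug. The mean shift from on drug was 4.27 at 48 h in A375 and 1.65 at 120 h in 451Lu.

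**Figure D3:**
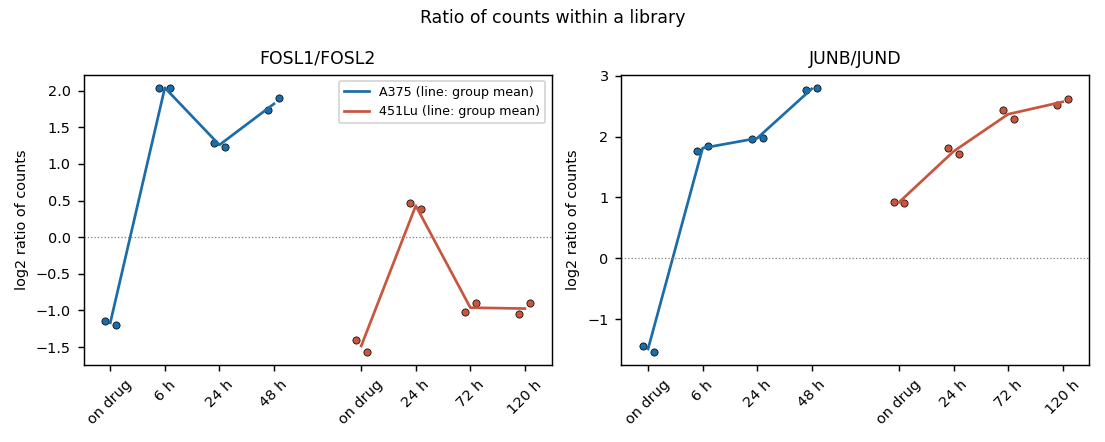
Log2 ratio of FOSL1 to FOSL2 counts (left) and of JUNB to JUND counts (right) in each library, with lines through the group means. FOSL1/FOSL2 goes from a mean of -1.17 to 2.04 at 6 h in A375, and in 451Lu from -1.49 to 0.43 at 24 h and back to -0.97 at 120 h, while the mean of JUNB/JUND is higher at each later time in both lines.

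ATF3 (ENSG00000162772, chromosome 1, 212565334 to 212620777, plus strand) fell in A375 at every time. Its level there was 31.1 and 30.3 CPM on drug, 3.92 and 5.99 at 6 h, 16.7 and 17.1 at 24 h, and 13.7 and 14.8 at 48 h. Every off-drug library lay below the on-drug pair, and the 6 h pair was the lowest. The change was -2.67 ± 0.13 at 6 h (6.38-fold lower, edgeR adjusted p = 1.21e-19), -0.90 ± 0.09 at 24 h (adjusted p = 9.58e-11) and -1.14 ± 0.10 at 48 h (adjusted p = 2.57e-12). From 6 to 24 h ATF3 rose by 1.77 ± 0.14 (adjusted p = 4.99e-13).

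In 451Lu ATF3 was low throughout, with 3.95 and 4.23 CPM on drug, 5.53 and 4.11 at 24 h, 5.62 and 7.78 at 72 h, and 5.48 and 4.92 at 120 h. The 24 h libraries overlapped the on-drug range. The change was 0.28 ± 0.21 at 24 h (95% interval -0.17 to 0.72, edgeR adjusted p = 0.282) and 0.33 ± 0.21 at 120 h (95% interval -0.12 to 0.78, adjusted p = 0.169). It was called only at 72 h (0.72 ± 0.21, adjusted p = 0.00594), and not without the second 72 h library (change 0.43, adjusted p = 0.171).

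**Figure D4:**
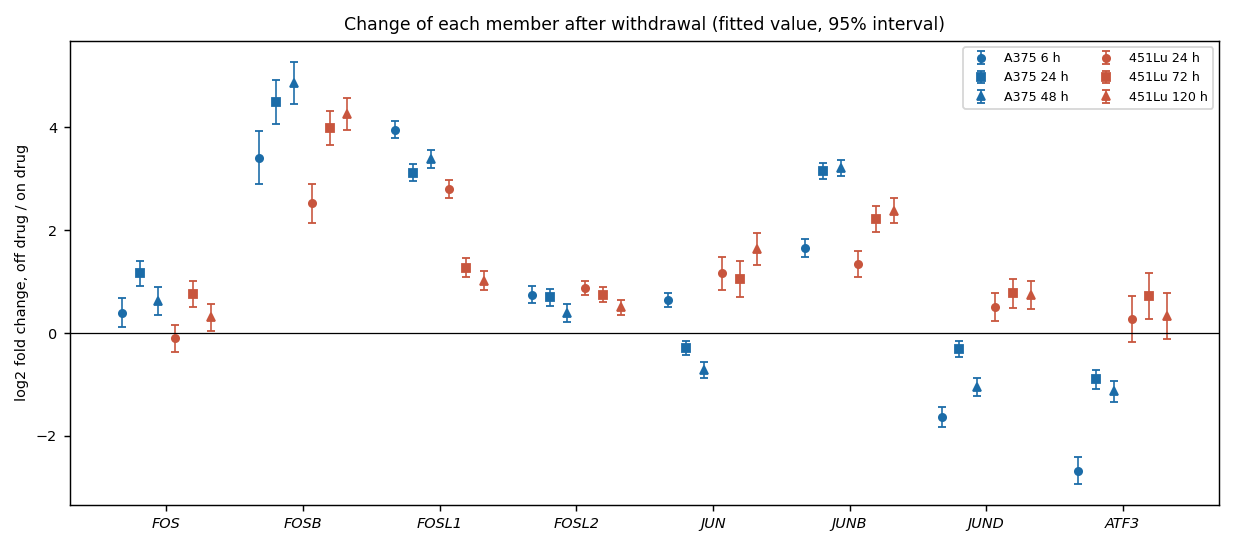
Fitted log2 change from on drug of each member, with its 95% interval, for 3 times in A375 (blue) and 3 in 451Lu (red). FOSB, FOSL1, FOSL2 and JUNB lie above 0 at all 6 times, while JUND and ATF3 lie below 0 in A375 only (ATF3 -2.67 at 6 h).

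Between consecutive times, 7 members were called from 6 to 24 h in A375 (5 higher, 2 lower) where 69.8% of genes tested were (35.5% higher, 34.2% lower). From 24 to 48 h 6 were called (2 higher, 4 lower) where 29.9% of genes were (14.2% higher, 15.7% lower). FOSL2 was the member not called from 6 to 24 h (-0.05 ± 0.08, edgeR adjusted p = 0.534), and JUNB (0.07 ± 0.06, adjusted p = 0.415) and ATF3 (-0.24 ± 0.11, adjusted p = 0.113) those not called from 24 to 48 h. The fall of FOSL2 from 24 to 48 h, 0.30 (adjusted p = 0.00409), was lost without the first 24 h library (adjusted p = 0.09). In 451Lu 4 members were called from 24 to 72 h (FOS, FOSB and JUNB higher, FOSL1 lower) where 51.4% of genes tested were (25.9% higher, 25.5% lower). From 72 to 120 h the 4 called were FOS, FOSL1 and FOSL2, lower, and JUN, higher, where 32.7% of genes tested were (16.6% higher, 16.1% lower).

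Those 4 calls from 72 to 120 h in 451Lu rest on single libraries. The fall of FOS by 0.46 (edgeR adjusted p = 0.00841) became 0.31 without the second 120 h library and 0.41 without the second 72 h library (adjusted p = 0.0757 in both). The fall of FOSL2 by 0.25 (adjusted p = 0.0108) became 0.22 without the first 72 h library (adjusted p = 0.0654). The fall of FOSL1 by 0.26 became 0.23 without the second 72 h library and 0.18 without the first 120 h library. The rise of JUN by 0.59 became 0.53 without the second 72 h library and 0.34 without the first 120 h library. JUNB, not called in the fit of all libraries (0.16 ± 0.11, adjusted p = 0.275), was called without the second 120 h library (0.33, adjusted p = 0.0067) and changed by -0.07 without the first (adjusted p = 0.662).

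On drug the 2 lines already differed in all 8 members, where 77.2% of genes tested were called between the lines (37.9% higher in A375, 39.3% lower). The line and its drugs cannot be told apart in this comparison. JUN was 2.61 ± 0.11 higher in A375 than in 451Lu (edgeR adjusted p = 4.23e-17), ATF3 was 2.90 ± 0.14 higher (7.47-fold, adjusted p = 2.24e-16) and JUND was 0.91 ± 0.11 higher (adjusted p = 2.67e-08). The 4 FOS genes and JUNB were lower in A375, FOSB by 4.54-fold (-2.18 ± 0.33, adjusted p = 1.73e-06), FOSL2 by 3.85-fold (-1.95 ± 0.08), FOSL1 by 3.09-fold (-1.63 ± 0.11), JUNB by 2.81-fold (-1.49 ± 0.13) and FOS by 2.80-fold (-1.49 ± 0.13). The order of group means over the study reflects this. A375 on drug was the lowest group for all 4 FOS genes and JUNB, and the highest for JUND and ATF3, whereas 451Lu on drug was the lowest for JUN. For ATF3 the 4 lowest groups (A375 at 6 h and 451Lu on drug and at 24 and 120 h) each overlapped the next in order.

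Both lines were sampled at 24 h, which allows a test of the difference between their changes. It was called for 7 of 8 members, where 49.4% of genes tested were called, and again line and drug cannot be told apart. FOSB rose by 4.49 ± 0.21 in A375 and by 2.52 ± 0.17 in 451Lu, a difference of 2.03 ± 0.36 (edgeR adjusted p = 4.14e-05) with the lower on-drug level in A375. JUNB differed by 1.86 ± 0.16 (adjusted p = 5.9e-10) in the same direction, with 24 h levels of 122 ± 11 CPM in A375 and 94.1 ± 11.2 in 451Lu (SD, n = 2). JUN went down in A375 and up in 451Lu, a difference of -1.39 ± 0.16 (adjusted p = 9.07e-08). For FOSL2 the difference was -0.12 ± 0.10 (95% interval -0.34 to 0.09, adjusted p = 0.355), so it was not called and differences outside that interval are not covered by it. FOSL1 differed by 0.38 ± 0.13 (adjusted p = 0.02), and that call was lost without the first on-drug library of A375 (0.29, adjusted p = 0.167), the first A375 library at 24 h (0.27, adjusted p = 0.13) or the second 451Lu library at 24 h (0.27, adjusted p = 0.0994).

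Among themselves the members fell into no single pattern. Over the 8 group means of log2 CPM, Pearson's r was 0.98 for FOSB with JUNB, 0.87 for FOS with FOSL2, 0.36 for FOSL1 with FOSL2 and -0.77 for FOSL2 with ATF3. These points share libraries and 2 lines with different levels, so the values are descriptions only. Over the same 8 groups and 15473 other genes, the gene closest in pattern was MYEOV for FOSB (r = 0.99), IMPDH1 for FOSL1 (0.97), MME for FOSL2 (0.99), NR1H2 for FOS (0.96), SLC25A43 for JUN (0.99), P4HA2 for JUNB (0.99), PRKACA for JUND (0.95) and ATP6AP1L for ATF3 (0.99). DUSP4, a phosphatase of ERK, was also among the 3 closest to FOSB (0.99), and CDK6, a G1 cyclin-dependent kinase, among the 3 closest to JUN (0.99).

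Other bZIP proteins can pair with AP-1 subunits, and their genes moved in both directions. Of 13 tested of 14 listed, 5 rose and 7 fell at 48 h in A375 (median -0.30), where 36.6% of all genes tested were called higher and 36.0% lower. At 120 h in 451Lu 8 rose and 4 fell (median 0.31), where 37.3% of all genes tested were called higher and 73.8% in either direction. JDP2, a repressor that pairs with JUN proteins, fell 10.6-fold at 48 h in A375 (edgeR adjusted p = 3.13e-13) and 2.68-fold at 120 h in 451Lu (adjusted p = 6.05e-05). MAF fell in both lines as well, 3.42-fold (adjusted p = 2.91e-17) and 4.26-fold (adjusted p = 2e-08). The small MAF gene MAFF rose 3.00-fold in A375 (adjusted p = 2.09e-14) and 4.43-fold in 451Lu (adjusted p = 1.66e-13), MAFK rose 3.34-fold and BATF3 4.36-fold in A375, BATF2 3.33-fold and NFE2L1 2.40-fold in 451Lu. BATF fell 5.85-fold in 451Lu. BATF2 held few counts in 451Lu, 27 on drug and 63 at 120 h. In A375 its mean level was lower at 48 h (1.09 CPM) than on drug (1.90 CPM).

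Another list held genes that act upstream of the family, such as SRF with its cofactors, the ERK, JNK and RSK kinases and the mRNA decay factor ZFP36. At 48 h in A375 12 of 20 tested rose and 6 fell (median 0.33), beside 36.6% and 36.0% of all genes tested. At 120 h in 451Lu 13 of 21 rose and 3 fell (median 0.44), beside 37.3% of all genes called higher and 73.8% called in all. ZFP36, whose protein shortens the life of AU-rich transcripts, rose 11.2-fold in A375 (edgeR adjusted p = 7.29e-25) and 3.73-fold in 451Lu (adjusted p = 1.08e-10). RPS6KA1 and RPS6KA3, which encode RSK kinases, rose 3.43-fold and 3.18-fold in A375, and ELK3 and MEF2D rose 5.45-fold and 4.18-fold in 451Lu. MKL2 fell 3.02-fold and MAPK7 1.55-fold in A375, and MAPK3 fell 1.38-fold in 451Lu. Mean levels of these genes moved the other way in the other line. In 451Lu MKL2 went from 50.3 CPM on drug to 133.5 at 120 h and MAPK7 from 17.8 to 28.9. In A375 MAPK3 went from 42.6 CPM on drug to 50.5 at 48 h. MAPK10 went from 52 counts on drug to 3 at 120 h in 451Lu, a ratio of 11.96 (95% counting interval 3.87 to 59.9).

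Genes known as AP-1 targets moved mostly upward. In A375 15 of 16 tested rose at 6 h and 14 at 24 and 48 h, where 35.1%, 36.2% and 36.6% of all genes tested were called higher. The list's median log2 change was 2.70, 3.57 and 3.89 there, beside -0.06, -0.02 and -0.0009 for all genes tested. In 451Lu 15 of 18 rose at 24 h and 17 at 72 and 120 h, where 29.2%, 34.2% and 37.3% of all genes tested were called higher. The list's median there was 3.09, 5.08 and 5.77, beside 0.03, -0.002 and 0.001 for all genes tested. With genes at 0 counts on drug set to their lower bound, the medians were 2.53, 3.26 and 3.89 in A375 and 2.88, 4.50 and 5.73 in 451Lu. The list was written with results of these data known and is no independent evidence of direction. IL11, a cytokine, had 0 counts in A375 on drug and 109 ± 3.5 CPM (SD, n = 2) at 48 h, at least 1227-fold higher against a floor of 3 counts over the group. MMP10, a matrix protease, was at least 150.8-fold higher there, and MMP1, an interstitial collagenase, went from 3 to 1410 counts, a ratio of 690.4 (95% counting interval 235.8 to 3352).

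In 451Lu at 120 h MMP9, a gelatinase, rose by 10.14 ± 0.30 on the log2 scale (edgeR adjusted p = 2.11e-14). MMP10 went from 1 to 613 counts there, a ratio of 888 (95% counting interval 159 to 35150). BCL2L11, which encodes the death factor BIM and is known to be repressed by ERK signalling, fell 1.36-fold in A375 (adjusted p = 6.19e-05) and 1.31-fold in 451Lu (adjusted p = 0.00322). CD44, a hyaluronan receptor, rose 1.81-fold at 6 h in A375 (adjusted p = 1.49e-19) and was 1.24-fold below on drug at 48 h (adjusted p = 2.25e-08). In 451Lu CD44 rose 10.8-fold at 120 h (adjusted p = 1.9e-16). The intervals and floors cover counting error only. Of 13 other immediate-early genes all rose at each time in A375, led by EGR1 (76.5-fold), IER3 and EGR3 at 48 h, where 36.6% of all genes tested were called higher. In 451Lu 9 rose and 2 fell at 120 h, where 37.3% of all genes were called higher and 73.8% in all, led by EGR3 (90.9-fold), IER3 and EGR2, while NR4A3 and MYC fell 3.14-fold and 2.53-fold.

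**Figure D5:**
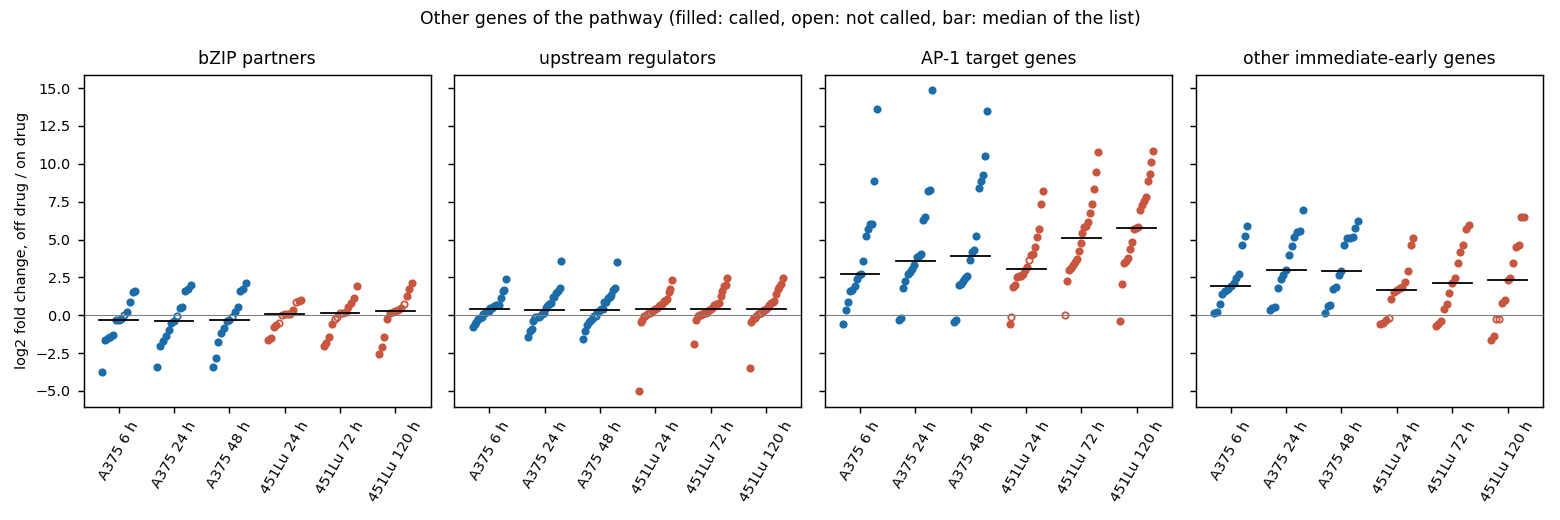
Log2 change from on drug of each gene tested in 4 lists, filled where called and open where not, with a bar at the list's median, for 3 times in A375 (blue) and 3 in 451Lu (red). The AP-1 target genes have medians between 2.70 and 5.77, and the highest point of that list in A375 is IL11, which had 0 counts on drug so that its plotted value depends on the prior count of the fit.

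Lineage markers moved with the same groups. The summed level of 7 melanocyte genes (SOX10, MITF, PMEL, MLANA, TYR, DCT, TYRP1) ranged from 4905 to 5020 CPM in A375 on drug and from 954 to 1047 at 48 h, and from 11160 to 11750 in 451Lu on drug and 953 to 1065 at 120 h. All 7 were called lower at both last times, and TYRP1 was at 0 counts in 451Lu at 120 h. Of all genes tested, 36.0% were called lower in A375 at 48 h. In 451Lu at 120 h 73.8% were called, with 37.3% called higher. Much of each on-drug sum was 1 gene, DCT in A375 (2961 CPM) and PMEL in 451Lu (9251 CPM). SOX10 only went from 608 to 543 CPM at 48 h in A375. In 451Lu SOX10 and MITF were lowest at 24 h (127.5 and 148 CPM) and reached 248 and 296 CPM at 120 h. Of 14 markers of keratinocytes, fibroblasts, endothelium and leukocytes 9 were in the table, and the rest were not analysed here. Their sum ranged from 25.0 to 25.2 CPM in A375 on drug and from 5.00 to 5.02 at 48 h, and in 451Lu from 140 to 154 on drug, 29.93 to 34.96 at 24 h, 39.4 to 48.1 at 72 h and 133.5 to 140 at 120 h. In 451Lu at 120 h the fibroblast markers did not move together: LUM went from 146 to 6.07 CPM, COL1A1 from 0.30 to 7.86 CPM, DCN from 3 to 94 counts and COL1A2 from 0 to 8 counts. The endothelial marker PECAM1 went from 0 counts to 118 CPM there, while VWF stayed between 0.36 and 0.96 CPM and PTPRC was at 0 counts. The part of these genes in the changes of the AP-1 members was not tested.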

How the data were processed

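RNA from 16 libraries was sequenced. Alignment by the authors used TopHat2 2.1.0 with Bowtie 1.0.0 on GRCh38, per the submitters' processing notes. The authors deposited unnormalised counts, whole numbers for each Ensembl gene with 1 column a library. What counted the reads, with which annotation release, strand setting and filters, is not given in the sources used here.

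Groups came from sample titles. Each line was fitted alone in edgeR 4.0.16 (R 4.3.3) with 4 groups and 4 residual degrees of freedom, using TMM, filterByExpr (minimum count 10, minimum total 15) and the quasi-likelihood F test, over 14449 genes in A375 and 13851 in 451Lu. Contrasts between lines used 1 fit of all 16 libraries (15481 genes, 8 residual degrees of freedom). CPM values use the TMM factors of all 16 libraries. These factors shifted with withdrawal. In A375 they were 1.20 and 1.21 on drug and 0.98 and 0.97 at 6 h. In 451Lu they were 1.04 and 1.05 on drug and 0.85 and 0.86 at 120 h. Small changes therefore depend on this scaling. The SE is the absolute log2 change divided by the square root of F. The fits' common coefficient of biological variation was 3.19% (A375), 4.98% (451Lu) and 4.15% (all libraries). The code was tested on simulated data.

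Exonic lengths are unions of GENCODE v29 exons, whose gene coordinates equal those in the table for all 8 members. Members, gene lists, the rule for named genes (per list and line, up to 3 called genes with the largest rise and 3 with the largest fall at the last time, and for each member the 3 genes closest in pattern) and tests were chosen with earlier results of these data known. Of 89 entries in all lists, 84 were in the table. Some genes that the rule names are not reported here. Alternatives were RLE size factors, DESeq2 1.42.0, no filter, a replicate block, a 1.5-fold test, a joint fit, each library left out, and other scales for shares.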

Additional observations from a re-analysis of the deposited data

Results flagged for a closer look

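The change at 24 h differed between A375 and 451Lu by a test of the difference itself (edgeR's quasi-likelihood test in the fit of all 16 libraries, adjusted over 15481 genes) for 7 of the 8 AP-1 genes, where 49.4% of genes tested were called. Values are the log2 change in A375 minus that in 451Lu, with SE. FOS, not called at 24 h in 451Lu, had a difference of 1.33 ± 0.18 (adjusted p = 5.99e-07). For FOSB it was 2.03 ± 0.36 (adjusted p = 4.14e-05). On drug the mean FOSB level was 0.68 CPM in A375 and 3.14 in 451Lu. At 24 h it was 15.9 and 17.5 CPM, and the libraries of the lines overlapped. FOSL1, called in both lines, had a difference of 0.38 ± 0.13 (adjusted p = 0.02). That difference ranged from 0.27 to 0.48 over the alternatives tried, and its call did not hold in all of them. JUN, which fell in A375 and rose in 451Lu, had a difference of -1.39 ± 0.16 (adjusted p = 9.07e-08). For JUNB it was 1.86 ± 0.16 (adjusted p = 5.9e-10). JUND, lower in A375 and higher in 451Lu, had a difference of -0.75 ± 0.16 (adjusted p = 2.57e-04). ATF3, lower in A375 and not called in 451Lu, had a difference of -1.11 ± 0.23 (adjusted p = 2.08e-04). In each line both 24 h libraries lay on the stated side of the on-drug pair for these called changes. Line and drug cannot be told apart in the contrast.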

How the results depend on the processing

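Of 976 re-computed member results, 914 kept their direction and their side of the threshold, 48 lost their call, 9 gained one and 5 changed sign. RLE size factors changed no member's call, but they too take the bulk of genes as unchanged and so do not test that assumption. The 27 calls lost when testing against a 1.5-fold change follow from that stricter hypothesis. The genes called then numbered 4566, 4257 and 4525 at 6, 24 and 48 h in A375, 4081 from 6 to 24 h and 215 from 24 to 48 h. In 451Lu they numbered 2373, 4387 and 5688 at 24, 72 and 120 h, 1768 from 24 to 72 h and 550 from 72 to 120 h. Between the lines they numbered 7054 on drug and 2722 for the 24 h change. Members called then numbered 5 at 24 h in A375, 5 at 72 h and 4 at 120 h in 451Lu, and 0 for the last step of either line. DESeq2 called 2427 genes from 24 to 48 h in A375 (4318 with edgeR), and the cause was not tested.

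With 1 library left out, the genes called from 72 to 120 h in 451Lu ranged from 2851 to 4052 (4531 with all) and the members called from 1 to 5. The 5 changes of sign were all of results not called and all came from leaving out 1 library. With each library left out in turn, the change of FOSL2 from 6 to 24 h in A375 ranged from -0.12 to 0.0043 (highest without the second 24 h library), and that of JUNB from 24 to 48 h in A375 from -0.023 (without the second 24 h library) to 0.16. The change of FOS at 24 h in 451Lu ranged from -0.22 to 0.034 (without the second on-drug library). From 72 to 120 h in 451Lu, JUNB ranged from -0.066 (without the first 120 h library) to 0.33 and JUND from -0.31 to 0.17 (without the second 120 h library). A group left with 1 library is assumed to vary like the others.

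FOSL1 was the largest FOS member in 4 groups by raw counts, in 8 per exonic length, in 8 per length of the longest basic transcript (an alternative chosen after seeing the data) and in 7 without FOSL2. The replicate number stands for the letter B or C in the sample titles, and both letters recur in every group. For the pairing by replicate number, deviations of same-numbered libraries correlated between -0.05 and 0.11. The highest values were 0.08, 0.11 and 0.09, all between off-drug times of 451Lu. Low correlations cannot show that libraries are unpaired, so whether the numbers pair them is left undecided. A replicate block lost no member's call and gained 2, JUND from 24 to 72 h in 451Lu (0.27, adjusted p = 0.0469) and FOSB from 72 to 120 h (0.27, adjusted p = 0.0122). FOSB at 12 and 11 counts in A375 on drug and ATF3 in 451Lu are the values that depth limits most.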
